A study of Mus musculus with 6 samples.

Results

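Glutathione transferases and peroxidases are enzymes, many of which use glutathione, the main small thiol of the cell, to conjugate reactive compounds or to reduce peroxides. The rule that defines the group reads gene symbols and gene type only. They are the protein-coding genes of the cytosolic transferase classes alpha, mu, pi, theta, omega and zeta, the kappa transferase, the microsomal transferases, the peroxidases Gpx1 to Gpx8, and the 3 genes of glutathione synthesis, Gclc, Gclm and Gss. The rule gave 36 genes of the 49315 in the count files, and 31 of them had enough counts to be tested.

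RNA was sequenced from granulosa cells, the somatic cells that surround the oocyte in the ovarian follicle, of female C57BL/6J mice aged 8 to 9 weeks. The 3 libraries labelled WT came from wild-type mice and the 3 labelled KO from mice with a granulosa cell-specific knockout of Jmjd3 (Kdm6b), a histone H3K27 demethylase. The sources used here do not give the promoter that drives the deletion, the deleted exons, or the cycle stage or hormone state of the mice. Nothing in the labels says that replicates came from separate animals. The p-values therefore rest on library-to-library spread, part or all of which may be technical.

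Total counts ran from 42379018 (KO replicate 2) to 49901493 (WT replicate 1). Levels within a gene are given as CPM, counts relative to the scaled library size, where 1 CPM stands for 42.5 to 51.4 counts. Levels between genes are given as RPKM, which also divides by gene length in kilobases. Each difference is a log2 fold change of KO over WT. It was tested by quasi-likelihood in edgeR, p-values were adjusted over all 18250 genes by the Benjamini-Hochberg method, and a gene is called at an adjusted p under 0.05. Kdm6b itself measured 66.2 to 72.8 CPM across WT, and KO replicates 1 to 3 had 64.7, 68.6 and 112 CPM (adjusted p = 0.755, edgeR), so its counts give no check of the KO label, and counts over the whole gene cannot show a deletion of some exons. All 20 granulosa cell markers listed were tested, with 3 called lower in KO (background 0.0932%) and 0 called higher (background 0.126%). The sum of the 20 was 19136 to 22394 CPM across WT and 22085 to 30348 CPM across KO, so it does not show the 3 that were lower. The libraries labelled KO differed among themselves. The summed luteal markers (12 genes) were at 21223, 15298 and 11756 CPM in KO replicates 1 to 3 against 9937 to 12260 CPM in WT, and the summed ovulation markers (14 genes) at 287, 497 and 1260 CPM against 269 to 496 CPM.

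As background, glutathione is made by glutamate-cysteine ligase, a catalytic subunit (GCLC) with a modifier subunit (GCLM), and then by glutathione synthetase (GSS). Many of the peroxidases spend glutathione to turn hydrogen peroxide and lipid peroxides into harmless alcohols and water. Many transferases attach glutathione to electrophiles such as the aldehydes left by lipid peroxidation. In steroid-making cells of the ovary the cytochrome P450 enzymes can leak reactive oxygen, and some alpha-class transferases also isomerize steroids.

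Mouse peroxidases fall into those with selenocysteine at the active site and those with cysteine there. This is seen in the coding sequence, where selenocysteine is written by an in-frame TGA. The 27 bases around that codon are shown for the 8 genes, read 5′ to 3′ from GENCODE M21 transcripts on GRCm38, with the active-site codon in capitals.
Gpx1: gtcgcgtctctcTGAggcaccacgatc
Gpx2: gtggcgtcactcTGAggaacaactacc
Gpx3: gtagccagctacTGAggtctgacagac
Gpx4: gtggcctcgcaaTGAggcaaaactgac
Gpx5: gtggctacctatTGCggtctgacaatc
Gpx6: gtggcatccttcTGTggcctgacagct
Gpx7: gtagctagcgaaTGTggcttcacagac
Gpx8: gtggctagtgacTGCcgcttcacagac
The codons of Gpx1 to Gpx4 are annotated as selenocysteine, and Gpx5 to Gpx8 carry the cysteine codons TGC or TGT at the aligned position. The windows lie at chr9:108339439-108339465 (Gpx1, plus strand), chr12:76795244-76795270 (Gpx2, minus), chr11:54907244-54907270 (Gpx3, plus) and chr10:80054725-80054751 (Gpx4, plus). Those of the cysteine group lie at chr13:21291324-21291350 (Gpx5, minus), chr13:21313765-21313791 (Gpx6, plus), chr4:108403418-108403444 (Gpx7, minus) and chr13:113045649-113045675 (Gpx8, minus).

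In WT granulosa cells the transcripts were dominated by a few genes. Gpx3, the secreted peroxidase, stood at 536 ± 31.6 RPKM (SD, n = 3), above 99.7% of tested genes. Mgst1, a membrane-bound transferase that also reduces lipid peroxides, followed at 212 ± 18.7 RPKM, and the mu-class genes Gstm1 and Gstm2 at 145 ± 15.2 and 138 ± 12.4 RPKM. Of the 30 pairs of neighbours in the order of WT levels, 11 overlapped in the range of the WT libraries. In the run Gstm1, Gstm2, Gpx4, Gpx1 and Gpx7 (119 ± 2.05 RPKM), each gene but the last overlapped the next. Gstp1 (106 ± 4.91 RPKM) overlapped Gsta4 (83.1 to 105 RPKM in the WT libraries). In all, 8 genes had a WT mean of at least 100 RPKM, and 4 of the tested genes (Gsta3, Gpx6, Gstp3 and Gsto2) had one under 1 RPKM. Of the summed RPKM of the 25 transferase genes in WT, 76.7% came from Mgst1, Gstm1, Gstm2, Gstp1 and Gsta4.

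**Figure D1:**
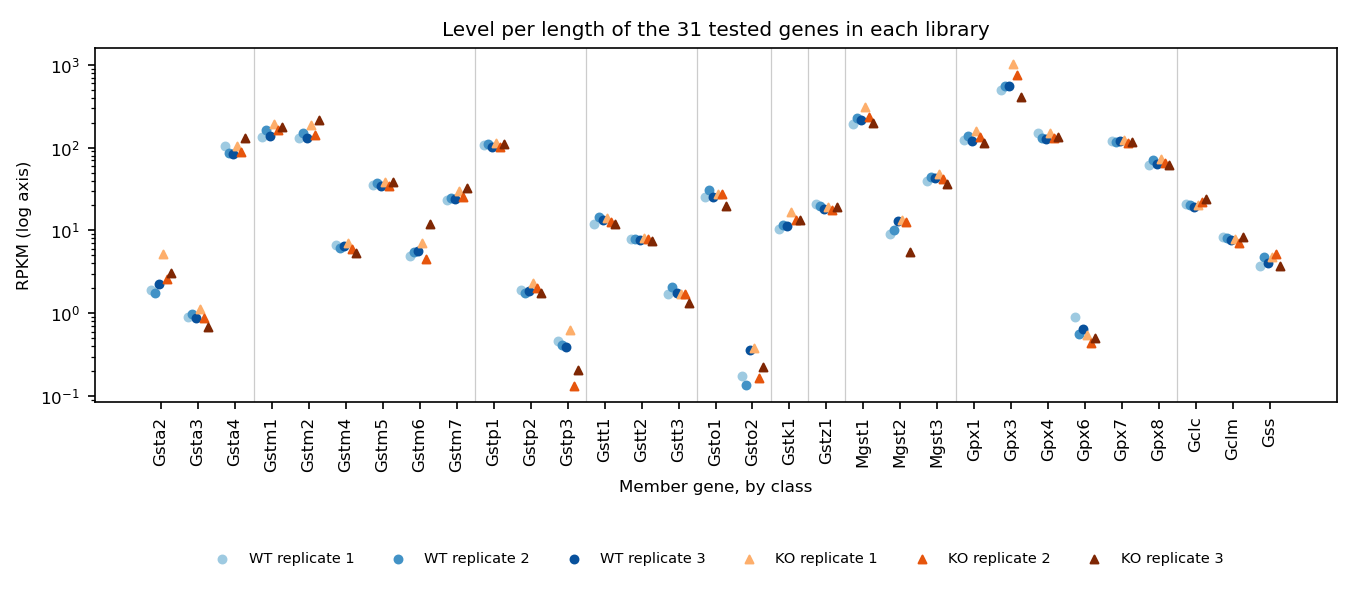
Level of each of the 31 tested genes in each library, as RPKM on a log axis, by class (circles WT, triangles KO, 3 libraries each). Gpx3 stands highest in every library, and Gstp3, Gsto2 and Gpx6 lie below 1 RPKM in all 6.

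Both kinds of peroxidase were found at high level. Gpx1, Gpx3 and Gpx4 were among the most abundant members, but so was the cysteine enzyme Gpx7 of the endoplasmic reticulum, and its relative Gpx8 stood at 64.9 ± 5.08 RPKM. Gpx2, known from the gut epithelium, and Gpx5, known from the epididymis, had at most 1 count in any library. With Gsta1, Gstm3 and Gstt4 they make up the 5 genes not tested, none of which had more than 7 counts in any library.

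Not every member can be read alone, since some share sequence with a copy. Of the distinct windows of 100 bases in the transcripts of Gsta2, 28.4% also occur in transcripts of another gene, among them Gsta1, Gm10639 and Gm3776. The same holds for 46.9% of those of Gstp2 and 25.1% of those of Gstp1, which share them with each other and a pseudogene, and for 25.2% of those of Gpx4, which match Gpx4-ps2. The values of these genes are uncertain to that extent, since the sources used here do not say how reads with several matches were treated. For Gpx3, Gstk1, Mgst1, Gstm7 and Gsta4 the share was 0%, and for Gstm2 it was 0.357%. Gss, Gstz1, Gclm and Gstm5 overlap antisense transcripts or genes of the opposite strand over part of their exons. Without a stated strand setting those reads cannot be told apart. Gstt3 overlaps Gm20441 and Gclm overlaps the pseudogene Gm6061 on the same strand, where a strand setting would not separate the reads.

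No member was called between WT and KO with all 6 libraries. The test called 0 of 31 in edgeR, where 0.219% of all tested genes were called (0.126% higher and 0.0932% lower). DESeq2 also called 0 (background 1.21%), as did limma-voom (background 0.466%). None was called with no low-count filter (background 0.617%) or with the replicate block (0.0822%), and none without WT replicate 1 (0.0913%), WT replicate 2 (0.0428%) or WT replicate 3 (0.0485%). None was called without KO replicate 1 (0.139%) or KO replicate 2 (0.193%), under RLE (0.214%) or upper quartile scaling (0.17%), or with a filter at a mean of 1 CPM (0.146%). At an unadjusted p under 0.05 there were 5 of 31 in edgeR, all higher in KO (background 9.16% in either direction, 4.65% higher and 4.51% lower), 6 in DESeq2 (all higher, background 8.56%) and 5 in limma-voom (3 higher and 2 lower, background 15.2%). The 5 in edgeR were Gstk1, Gsta2, Gstm7, Gstm1 and Gstm2, and the lowest adjusted p among members was 0.314. A positive fold change was found in 19 of 31, with a median of 0.04, against a median of 0.00 and 50.9% positive over all tested genes. Without KO replicate 1 the median was -0.03 and 13 were positive. For 16 members the 95% confidence interval lay wholly within 0.5 of 0 on the log2 scale, as it did for 10188 of all 18250 genes.

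The libraries labelled KO did not move together. KO replicate 1 lay above all 3 WT libraries in 23 of 31 members (background 31.3%) and below them in 1 (background 30.2%), with a median of 0.21 on the log2 scale over the WT mean. KO replicate 2 lay above in 8 (27.2%) and below in 9 (26.5%), with a median of -0.02. KO replicate 3 lay above in 10 (29.3%) and below in 14 (30.1%), with a median of -0.06. For 22 of the 31 genes the KO libraries stood on both sides of the WT mean. The share of all tested genes that did so was not computed, so this count shows nothing particular to the members. The SD of log2 CPM was larger in KO than in WT for 25 of 31 members, and for 59.1% of all tested genes.

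**Figure D2:**
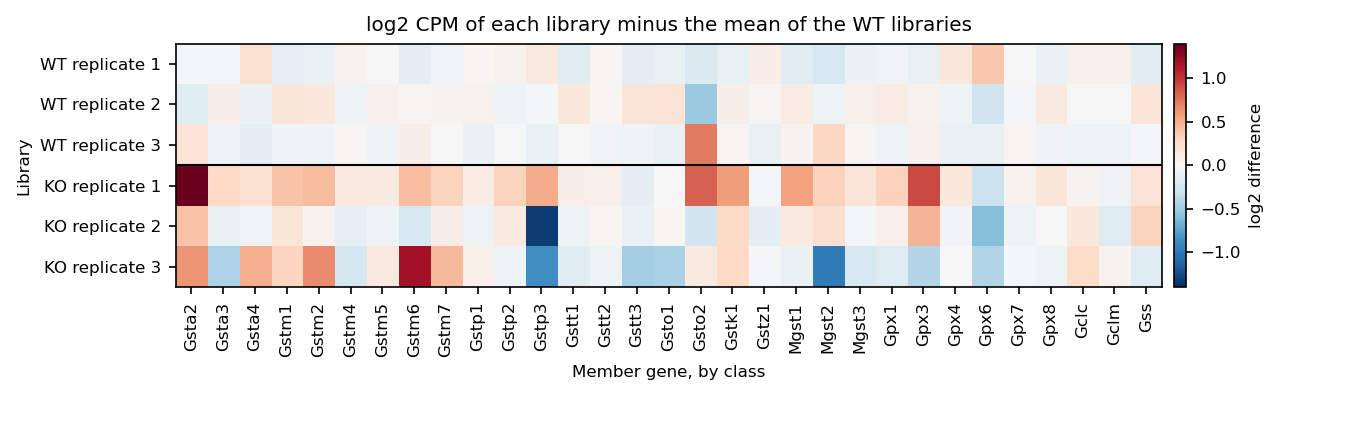
log2 CPM (prior count 2) of each library minus the mean of the WT libraries, for the 31 tested genes by class. The row of KO replicate 1 is mostly positive (23 genes above every WT library), while that of KO replicate 3 holds the highest Gstm6 and the lowest Mgst2.

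No gene of glutathione synthesis passed the test. Gclc, the catalytic subunit, measured 78.2, 75.5 and 72.2 CPM across the WT libraries and 77.0, 83.2 and 90.1 CPM across the KO libraries, which is 0.15 ± 0.07 on the log2 scale (SE, 95% confidence interval -0.02 to 0.32, adjusted p = 0.586, edgeR) and 0.09 without KO replicate 3. Gclm, the modifier subunit, measured 53.1, 51.2 and 48.4 CPM across the WT libraries and 49.0, 44.9 and 52.8 CPM across the KO libraries (-0.06 ± 0.08 SE, adjusted p = 0.854, edgeR). The groups overlapped for each subunit. They did not overlap in the ratio of the subunits within a library: the log2 ratio of Gclc to Gclm RPKM was 1.30, 1.30 and 1.32 in WT and 1.39, 1.63 and 1.51 in KO. The mean difference was 0.21 (two-sided exact permutation test, p = 0.1, n = 3 against 3, the smallest p this design allows). Gss averaged 24.9 CPM in WT against 27.1 CPM in KO, with KO replicate 3 lowest at 21.8 CPM.

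Gpx3, the most abundant member, differed widely among the KO libraries. It measured 906, 1002 and 1009 CPM across the WT libraries and 1845, 1353 and 732 CPM across the KO libraries, so KO replicates 1 and 2 were above every WT library and KO replicate 3 below them. On the log2 scale KO exceeded WT by 0.43 ± 0.32 (SE), with a 95% confidence interval of -0.37 to 1.23 and an adjusted p of 0.721 in edgeR. Leaving out KO replicate 3, the value was 0.72 ± 0.12 (0.45 to 0.98) and passed the test (adjusted p = 0.00505, edgeR), in a fit that called 2.26% of all genes (1.74% higher and 0.521% lower). Without KO replicate 1 it was 0.09 (adjusted p = 0.949, edgeR). The sums of 8 of the 11 marker lists had the same order over the KO libraries: luteal, theca, endothelial, immune, red blood cell, stromal, smooth muscle and surface epithelium. The endothelial sum (11 of 11 genes) was 352, 246 and 165 CPM in KO replicates 1 to 3 against 183 to 224 CPM in WT. The immune cell sum (15 of 15) was 508, 389 and 263 CPM against 327 to 425 CPM. The red blood cell sum (8 of 9 matched) was 2268, 1345 and 834 CPM against 385 to 803 CPM. Of its genes 1 was called higher in KO with all 6 libraries (background 0.126%). None of these markers was at 0 in all libraries, and their part, like that of the luteal markers, in the Gpx3 values was not tested. In bulk RNA, a different number of cells of a type and a different amount of RNA per cell cannot be told apart.

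The other peroxidases did not pass the test under any alternative. Gpx1, the general cytosolic peroxidase that red blood cells also carry, measured 179, 198 and 174 CPM across the WT libraries and 229, 193 and 162 CPM across the KO libraries, an order over the KO libraries like that of Gpx3 at a smaller size. Gpx4, which reduces lipid hydroperoxides in membranes and protects cells from ferroptosis, measured 258, 224 and 218 CPM across the WT libraries and 258, 226 and 233 CPM across the KO libraries (0.03 ± 0.09 SE, adjusted p = 0.935, edgeR). Gpx7 had one of the narrowest intervals, with a log2 fold change of -0.01 (95% confidence interval -0.16 to 0.14), its libraries spanning 151 to 157 CPM (WT) and 146 to 160 CPM (KO). Gpx8 averaged 66.0 CPM in WT against 67.4 CPM in KO. Gpx6, known from olfactory epithelium, was the 1 member lower in every KO library than in any WT library (background 7.89%), at a level of 0.565 to 1.15 CPM (-0.48 ± 0.26 SE, adjusted p = 0.61, edgeR). The groups all but met, with 34 counts (0.714 CPM) in WT replicate 2 and 33 (0.704 CPM) in KO replicate 1. Without WT replicate 1, the highest library for Gpx6, the log2 fold change was -0.26.

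**Figure D3:**
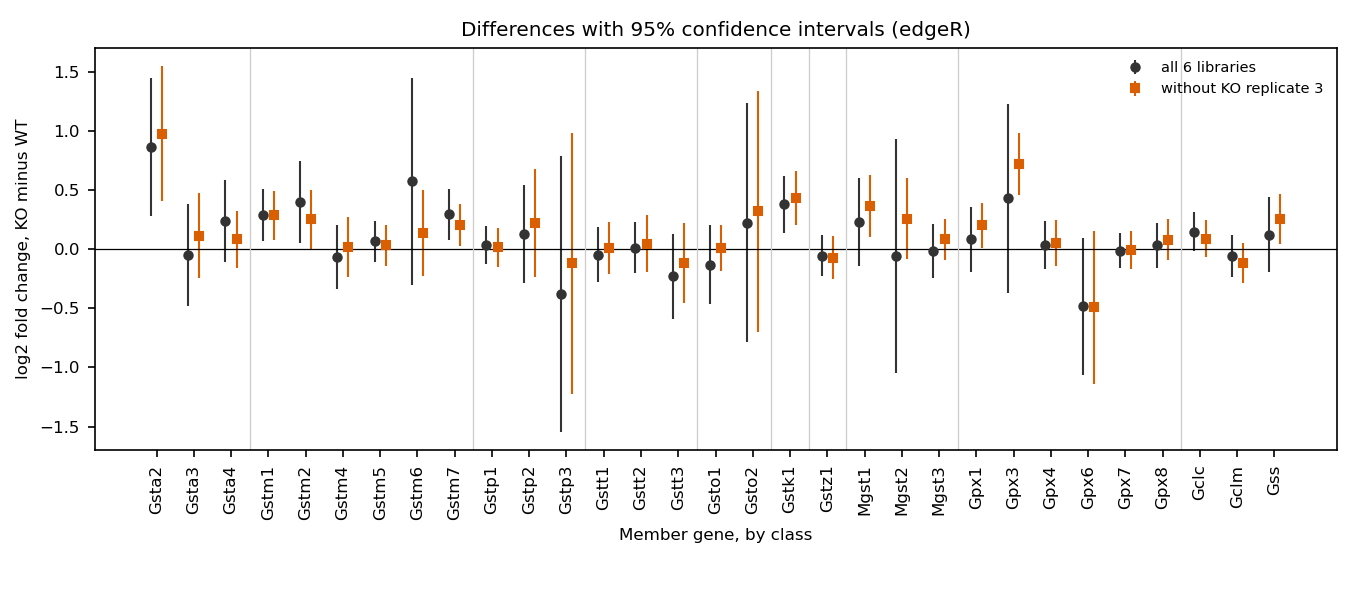
log2 fold change, KO minus WT, with 95% confidence intervals for the 31 tested genes, from all 6 libraries (circles) and without KO replicate 3 (squares). The interval of Gpx3 narrows from -0.37 to 1.23 to 0.45 to 0.98 without that library.

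Among the transferases, the kappa gene Gstk1, whose product works in mitochondria and peroxisomes, was higher in every KO library. Gstk1 measured 15.1, 17.3 and 16.6 CPM across the WT libraries and 24.5, 19.6 and 19.8 CPM across the KO libraries (0.38 ± 0.11 SE, 95% confidence interval 0.14 to 0.62, adjusted p = 0.314, edgeR). It passed without KO replicate 3 (0.43, adjusted p = 0.0467, edgeR), the only other member to do so beside Gpx3 in the 6 fits that left out a library, whereas without WT replicate 3 its adjusted p was 0.72. Gsta2, an alpha-class enzyme, also separated the groups, with 2.28, 2.06 and 2.64 CPM across WT and 6.06, 3.06 and 3.57 CPM across KO (0.87 ± 0.26 SE, 95% confidence interval 0.28 to 1.45, adjusted p = 0.359, edgeR). Its fold change was 0.51 without KO replicate 1, the library with the highest value. Gstm7 was the third gene higher without overlap, and the background for such genes was 7.68%.

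The alpha gene Gsta4, which conjugates the lipid aldehyde 4-hydroxynonenal, measured 132, 108 and 105 CPM across the WT libraries and 133, 112 and 163 CPM across the KO libraries (0.24 ± 0.15 SE, adjusted p = 0.668, edgeR). The Gsta4 value was 0.08 without KO replicate 3, 0.36 without KO replicate 2 and 0.06 in limma-voom. Gsta3 stood at 2.95 to 4.86 CPM over all libraries. Gsta1, Gsta4 and Gsta2 lie together on chromosome 9 between 78182774 and 78355788 (GRCm38), and Gclc lies nearby at 77754535 to 77794485. In KO replicate 3 Gsta4 and Gclc had their highest values of the 6 libraries, but Gsta2 did not.

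The mu-class genes form 1 cluster on chromosome 3, from Gstm5 (start 107895821) through Gstm7, Gstm6, Gstm3, Gstm2 and Gstm1 to Gstm4 (end 108044894). The log2 fold changes in that order were 0.07, 0.29 and 0.57 for Gstm5, Gstm7 and Gstm6, then 0.40, 0.29 and -0.07 for Gstm2, Gstm1 and Gstm4. The genes inside the cluster thus had larger values than those at its ends, and the difference between them was not tested. None passed, with adjusted p between 0.4 (Gstm7) and 0.892 (Gstm4) in edgeR.

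For Gstm1, Gstm2, Gstm5, Gstm6 and Gstm7, KO replicates 1 and 3 were above every WT library. Gstm4 differed from these, with KO replicate 3 the lowest library at 9.20 CPM against 10.5 to 11.3 CPM in WT. Over all tested genes KO replicate 1 was above every WT library in 31.3% and KO replicate 3 in 29.3%. The share with both above was not computed. Gstm2 measured 217, 255 and 222 CPM across the WT libraries and 312, 238 and 364 CPM across the KO libraries (0.40 ± 0.15 SE, 95% confidence interval 0.06 to 0.74, adjusted p = 0.474, edgeR). Gstm1 measured 196, 238 and 205 CPM across the WT libraries and 281, 238 and 262 CPM across the KO libraries (0.29 ± 0.10 SE, adjusted p = 0.426, edgeR). Gstm7 measured 37.0, 38.9 and 38.2 CPM across the WT libraries and 47.3, 40.3 and 52.3 CPM across the KO libraries (0.29 ± 0.10 SE, 95% confidence interval 0.08 to 0.51). The Gstm2 value was 0.25 without KO replicate 3 and 0.19 in limma-voom, and the Gstm7 value was 0.17 in limma-voom. For Gstm1 and Gstm2 the groups met at KO replicate 2, and for Gstm7 they stayed apart. Gstm6 measured 9.73, 10.8 and 11.4 CPM across the WT libraries and 14.2, 9.11 and 24.1 CPM across the KO libraries, and its log2 fold change went from 0.57 to 0.13 without KO replicate 3. That library also had the highest sum of ovulation markers, whose part in the Gstm6 value was not tested.

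**Figure D4:**
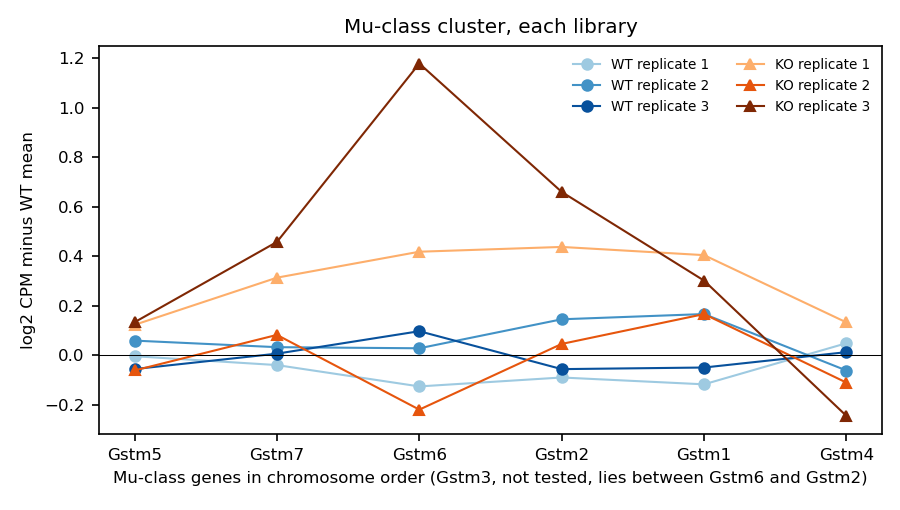
log2 CPM minus the WT mean for the mu-class genes in chromosome order, 1 line per library. KO replicate 3 peaks at Gstm6 (1.18) and is lowest at Gstm4 (-0.24), KO replicate 1 lies between 0.12 and 0.44 along the cluster, and KO replicate 2 stays within 0.22 of the WT mean.

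No gene of the remaining cytosolic classes passed the test. Gstp1, the pi-class enzyme, ranged from 76.0 to 82.8 CPM in WT against 76.2 to 86.1 CPM in KO (0.04, 95% confidence interval -0.12 to 0.20). Gstt1 and Gstt2, of the theta class that acts on small halogenated compounds, had log2 fold changes of -0.05 and 0.01, and Gstz1, the zeta enzyme of tyrosine breakdown, had one of -0.05. Gsto1, the omega enzyme that reduces dehydroascorbate, measured 49.7, 60.8 and 49.7 CPM across the WT libraries and 53.5, 54.2 and 38.7 CPM across the KO libraries, with KO replicate 3 lowest. Gstt3 was also lowest in KO replicate 3, at 3.49 CPM against 4.44 to 5.52 CPM in the other libraries. Gstp2 stood at 1.35 to 1.77 CPM over all libraries, Gstp3 at 0.0942 to 0.448 CPM and Gsto2 at 0.21 to 0.597 CPM, levels that rest on as few as 4 counts in a library for Gstp3. Their differences were wide: Gstp3 had a log2 fold change of -0.38 (95% confidence interval -1.54 to 0.79), -1.32 without KO replicate 1 and -1.09 in limma-voom. Gsto2 had one of 0.22 (-0.79 to 1.24), which became -0.18 without KO replicate 1, and Gstt3 one of -0.23 (-0.59 to 0.13).

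The microsomal transferases differed among the KO libraries. Mgst1 measured 385, 459 and 436 CPM across the WT libraries and 630, 469 and 399 CPM across the KO libraries, with KO replicate 1 highest (0.23 ± 0.16 SE, adjusted p = 0.7, edgeR). The Mgst1 value was 0.02 without KO replicate 1 and 0.36 without KO replicate 3. Mgst2, whose product can also make leukotriene C4, measured 33.8, 37.9 and 48.5 CPM across the WT libraries and 49.4, 46.3 and 20.1 CPM across the KO libraries. Its log2 fold change of -0.05 (95% confidence interval -1.04 to 0.93) became 0.26 without KO replicate 3. Mgst3 averaged 46.1 CPM in WT against 45.6 CPM in KO, again lowest in KO replicate 3 (39.4 CPM). In that library the summed markers of ovarian surface and oviduct epithelium (12 genes) were at 516 CPM against 657 to 898 CPM in the other 5, and those of stromal fibroblasts (10 genes) at 1349 CPM against 1532 to 1826 CPM. Their part in the Mgst2 and Gsto1 values was not tested.

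**Figure D5:**
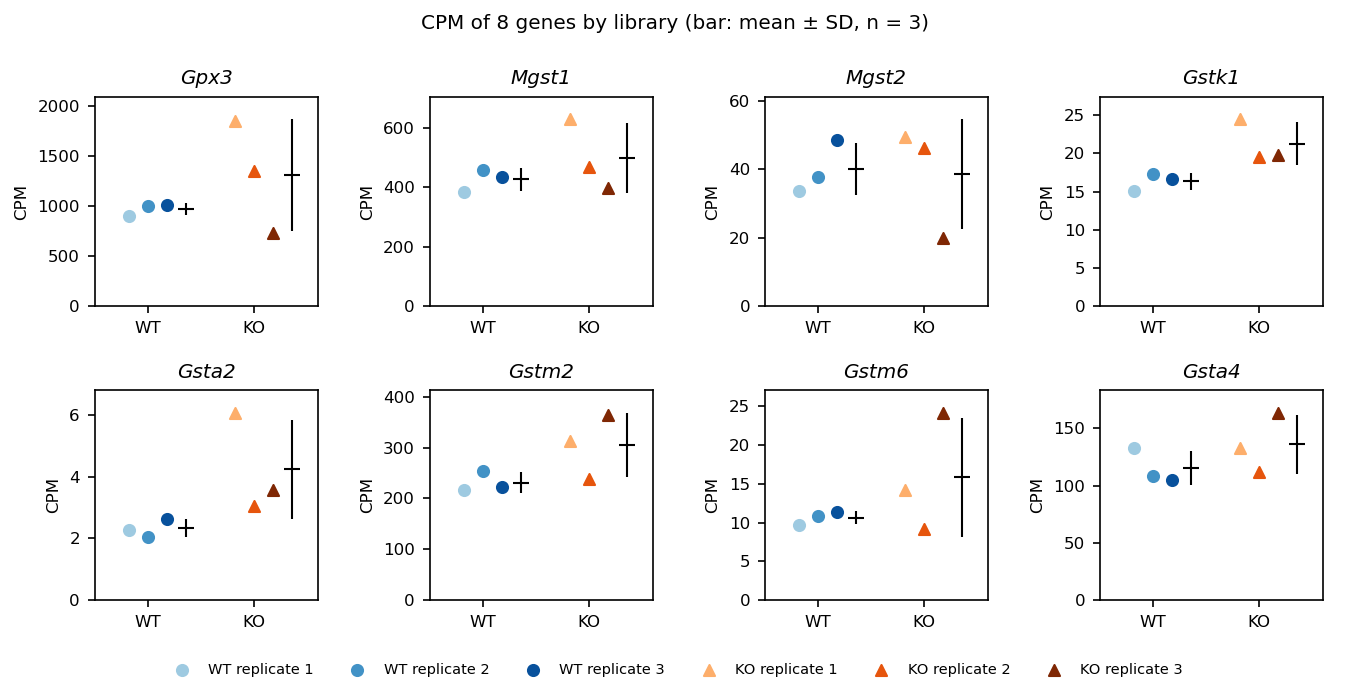
CPM of 8 genes in each library (circles WT, triangles KO), with the mean ± SD of each group (n = 3) as a black bar. KO replicate 3 is the lowest library for Gpx3 and Mgst2 and the highest for Gstm2, Gstm6 and Gsta4, and the groups do not overlap for Gstk1 and Gsta2.

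Many of these genes are known targets of NRF2, the transcription factor of the oxidative stress response, which binds the antioxidant response element. Its core, TGACNNNGC, was searched on both strands in the 250 bases before the start sites that RefSeq gives on GRCm38. Of the 36 genes, 33 had such a window, with 45 windows in all. A match was found in 5 windows (11.1%), against 10.2% of all 32851 windows, so the share was near that of promoters at large. The 5 matches are shown with 20 bases on each side, 5′ to 3′ on the strand of the gene, with the match in capitals.
Gclm: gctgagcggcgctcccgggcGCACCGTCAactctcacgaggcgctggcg
Gsta3: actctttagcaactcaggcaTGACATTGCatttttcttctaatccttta
Gstm5: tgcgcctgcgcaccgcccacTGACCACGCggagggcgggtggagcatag
Gstm7: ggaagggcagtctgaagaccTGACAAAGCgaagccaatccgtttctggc
Mgst1: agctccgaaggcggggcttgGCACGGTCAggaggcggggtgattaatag
They lie at chr3:122245403-122245451 (Gclm, plus), chr1:21240444-21240492 (Gsta3, plus), chr3:107895792-107895840 (Gstm5, plus), chr3:107931715-107931763 (Gstm7, minus) and chr6:138140451-138140499 (Mgst1, plus). The matches in Gclm and Mgst1 are on the opposite strand. The core can overlap a site of AP-1 factors, TGACTCA. A match describes letters only. The 5 genes had log2 fold changes of -0.06 (Gclm), -0.05 (Gsta3), 0.07 (Gstm5), 0.29 (Gstm7) and 0.23 (Mgst1).

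Of the genes that work beside these enzymes, none was called in edgeR with all 6 libraries, and Srxn1, Ephx1 and Dio3 were called under alternatives. As background for each list, edgeR called 0.219% of all tested genes and DESeq2 1.21%. At an unadjusted p under 0.05 in edgeR, 4.65% were higher and 4.51% lower, and the median log2 fold change was 0.00. In edgeR 0 of 28 genes of glutathione supply and recycling were called, with 1 higher and 1 lower at an unadjusted p under 0.05 and a median log2 fold change of 0.07. Slc3a2, a subunit of the cystine importer, measured 311, 340 and 344 CPM across the WT libraries and 451, 383 and 404 CPM across the KO libraries, without overlap (0.32 ± 0.09 SE, adjusted p = 0.314, edgeR). Anpep, an aminopeptidase that acts on the products of glutathione breakdown, averaged 112 ± 15.4 CPM in WT against 75.8 ± 18.4 CPM in KO (-0.56 ± 0.20 SE, adjusted p = 0.488, edgeR).

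Of 22 other enzymes that use glutathione, 0 were called in edgeR, with 2 higher and 0 lower at an unadjusted p under 0.05 and a median of 0.03. Ptges, the prostaglandin E synthase related to the microsomal transferases, measured 247, 232 and 240 CPM across the WT libraries and 266, 268 and 274 CPM across the KO libraries (0.17 ± 0.07 SE, adjusted p = 0.505, edgeR). Hagh, which finishes the glutathione-dependent removal of methylglyoxal, had a log2 fold change of 0.21, and the glutaredoxin genes Glrx5 and Glrx3 had values of 0.14 and -0.13.

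Of 16 genes of thioredoxins, peroxiredoxins, superoxide dismutases and catalase, 0 were called in edgeR, with 1 higher at an unadjusted p under 0.05 and a median of 0.05. Srxn1, the sulfiredoxin that repairs overoxidized peroxiredoxins, measured 20.1, 18.7 and 17.1 CPM across the WT libraries and 27.1, 23.0 and 159 CPM across the KO libraries. All 3 KO libraries were above WT and KO replicate 3 far above the rest (1.91 ± 0.93 SE, adjusted p = 0.623, edgeR). It passed without that library, at a log2 fold change of 0.43 (adjusted p = 0.0357, edgeR). Sod3, the extracellular superoxide dismutase, measured 56.6, 67.5 and 71.2 CPM across the WT libraries and 135, 97.9 and 75.1 CPM across the KO libraries (0.66 ± 0.23 SE, adjusted p = 0.471, edgeR). Its order over the KO libraries was that of Gpx3. Gpx1, Gpx8, Mgst1, Mgst2, Mgst3, Gsta3, Gstm4, Gstp2, Gstt1 and Gstt2 had that order too. The share of all tested genes with it was not computed, so the order shows nothing particular to these genes.

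Of 20 tested NRF2 pathway genes outside the members, 0 were called in edgeR and 1 in DESeq2, with 2 higher in edgeR at an unadjusted p under 0.05 and a median of 0.08. The DESeq2 call was Ephx1, the microsomal epoxide hydrolase, with 98.2, 135 and 131 CPM across WT and 265, 188 and 160 CPM across KO (edgeR 0.75 ± 0.22 SE, adjusted p = 0.396; DESeq2 adjusted p = 0.00962). Nfe2l2, which encodes NRF2, measured 122, 128 and 111 CPM across the WT libraries and 128, 128 and 160 CPM across the KO libraries, with KO replicate 3 highest. Of 22 tested genes of selenoprotein synthesis and other selenoproteins, 0 were called in edgeR and 1 in DESeq2, with 2 higher and 1 lower in edgeR at an unadjusted p under 0.05 and a median of 0.02. The DESeq2 call was Dio3, the deiodinase that inactivates thyroid hormone, with 6.07, 5.90 and 8.61 CPM across WT and 3.99, 4.26 and 3.84 CPM across KO (edgeR -0.77 ± 0.17 SE, adjusted p = 0.196; DESeq2 adjusted p = 0.00724). In limma-voom none of these lists had a called gene.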

How the data were processed

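The authors deposited 1 file per library, with raw counts of reads for each gene. Per the submitters' processing notes, reads were handled with STAR 2.5.2b, Trimmomatic 0.36 and Subread's featureCounts (1.5.2) on GRCm38. The sources used here do not give the annotation release, the strand setting or the treatment of reads with several matches. Identifiers were matched to GENCODE M21 (49056 of 49315). Groups and replicate numbers came from the labels.

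edgeR 4.0.16 in R 4.3.3 was used with filterByExpr (18250 genes kept), TMM scaling and a robust quasi-likelihood fit whose single factor was genotype. CPM use the TMM-scaled library size (1 CPM is 42.5 to 51.4 counts), RPKM also the deposited gene length, and log2 CPM a prior count of 2. Steps were tested on simulated data. Alternatives were RLE and upper quartile scaling, DESeq2 1.42.0, limma-voom (limma 3.58.1) with quality weights, 2 other filters, a replicate block, and leaving out each library. Members and lists were chosen with earlier results of these data known. Any member kept by the filter may be named. Outside the members the rule named Kdm6b and, of each glutathione-linked list, the called genes and the 4 genes with the smallest p. Some genes that this rule names are not reported here. 1 oocyte and 1 red blood cell marker had no match to a symbol, and the oocyte, theca and smooth muscle sums are in the closing section.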

Additional observations from a re-analysis of the deposited data

How the results depend on the processing

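No member was called under RLE or upper quartile scaling, without a filter (36 genes tested, lowest adjusted p 0.0683, edgeR), with a filter at a mean of 1 CPM, with the replicate block, in DESeq2 or in limma-voom. Leaving out a library gave 0 to 2 members called higher, the 2 being Gpx3 and Gstk1 without KO replicate 3, and 0 called lower. Of the fold changes of single members under all alternatives, 397 stayed on their side of the threshold with the same sign or a change of sign smaller than the standard error (among these Mgst2, 0.26 without KO replicate 3 and 0.11 without WT replicate 3). The other 3 were the calls of Gpx3 and Gstk1 and a larger change of sign of Gpx1 (-0.06 without KO replicate 1). Over all genes the 40 calls became 199 with no filter, 21 with a filter at a mean of 1 CPM, 15 with the replicate block, 221 in DESeq2, 85 in limma-voom and 8 to 421 when a library was left out. In the thioredoxin list 0 to 1 genes were called higher when a library was left out (Srxn1, without KO replicate 3). In the NRF2 list DESeq2 called 1. In the selenoprotein list 1 gene was called lower with no filter and 1 in DESeq2, and 0 to 1 when a library was left out (Dio3, without KO replicate 3). Without TMM the WT level of Gpx7 moved from 119 to 122 RPKM. The replicate numbers were not found to pair the libraries (correlations of same-numbered deviations -0.02, 0.07 and -0.03). Depth limits Gstp3, Gsto2 and Gpx6, which had 4 to 59 counts per library.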

Other observations

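Markers of further cell types are given as summed CPM. The oocyte sum (14 of 15 genes) was 877 to 1124 CPM in WT and 734 to 809 CPM in KO. The theca and interstitial cell sum (9 genes) was 1514 to 1950 CPM in WT and 2239 to 2890 CPM in KO, while the median log2 fold change of its genes was -0.08. The smooth muscle and pericyte sum (9 genes) was 284 to 301 CPM in WT and 240 to 392 CPM in KO. The level summed over the 7 mu-class genes was 353 ± 29.1 RPKM in WT and 439 ± 58.0 RPKM in KO (SD, n = 3), and over the 8 peroxidases 984 ± 26.6 and 1181 ± 346 RPKM.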
